A study of Mus musculus with 6 samples.

Results

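The 32 genes described here encode enzymes and carriers that activate fatty acids, move them into mitochondria and oxidise them in mitochondria or peroxisomes. They were chosen by name from a list of pathway genes with earlier results of these data known, so the set is described and not tested. All 32 were found among the 25124 genes of the deposited table. Of these, 4 activate fatty acids (Acsl1, Acsl3, Acsl4 and Acsl5), 21 are mitochondrial, 5 are peroxisomal, and 2 (Crat and Eci2) act in both organelles. Messenger RNA was sequenced from bone marrow-derived macrophages, cells grown in culture from the marrow of 8-week-old wild type C57BL/6 mice during 7 days in 20 ng/ml macrophage colony-stimulating factor (M-CSF). M0 macrophages stayed in M-CSF alone, and M2 macrophages received 10 ng/ml interleukin-4 (IL-4) with the M-CSF for 4 h. Each group has 3 libraries. The labels do not say whether the 3 came from separate mice or cultures, so the p-values measure only the spread between libraries, which may be technical.

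A fatty acid is first joined to coenzyme A by an acyl-CoA synthetase. Long-chain acyl groups then enter mitochondria through the carnitine shuttle, where carnitine palmitoyltransferase 1 is the regulated step, and each turn of beta-oxidation removes an acetyl-CoA by dehydrogenation, hydration, a second dehydrogenation and thiolysis. Electrons of the first dehydrogenation pass through the electron transfer flavoprotein (ETF) and its dehydrogenase to the respiratory chain. Peroxisomes shorten very long and branched chains with a separate set of enzymes whose first step, an oxidase, makes hydrogen peroxide. IL-4 is the cytokine that drives alternative (M2) activation of macrophages, a state known for its use of fatty acid oxidation.

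Expression was given in TPM, a unit that scales read counts for transcript length and sequencing depth. The 6 libraries held 16913185 to 19019896 reads in genes, and 1 read in a 1-kb transcript was worth 0.0610 to 0.0700 TPM. M0 replicate 2 stood apart from the other M0 libraries. Its chi-square against them, divided by the degrees of freedom, was 9.52 and 10.7, where the other M0 pair gave 2.31 and pairs of M2 libraries 1.54 to 1.73. In deposited TPM the median log2 change over all 11235 genes tested was −0.15, whereas after each library was divided by its median-ratio factor it was 0.00. Because this shift is as large as many changes of the oxidation genes, each call of these genes is given on both scales, called TPM and median-scaled TPM. The 8 macrophage markers were all above 1 TPM, with a summed level of 16395 to 17546 TPM in M0 and 15189 to 15567 TPM in M2. Among 7 adipocyte markers, a cell type rich in these enzymes, Lep and Retn were at 0 in all libraries and the list summed to 0 to 0.144 TPM in M0 and 2.85 to 3.43 TPM in M2, with Adipoq as its highest gene. Fibroblast markers summed to 9.81 to 10.4 TPM in M0 and 7.63 to 8.27 TPM in M2. The part of such markers in the results was not tested.

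Most oxidation genes were expressed well above the detection level in both groups. Of the 32, 30 reached 1 TPM in all 6 libraries and were tested. Fitted log2 changes of M2 over M0, made on TPM plus a pseudocount of 1, which understates changes of low genes, ran from −0.84 to 0.38. In such bulk RNA fewer cells expressing a gene and less RNA per cell cannot be told apart. By limma-trend at an adjusted p under 0.05, 12 of the 30 rose, 6 fell and 12 did not pass, with a median log2 change of 0.07. Over all genes tested 17.7% rose and 45.3% fell on that scale, 62.9% in all. On median-scaled TPM 19 of the 30 rose, 3 fell and 8 did not pass, with a median of 0.23, while 28.8% of all genes rose and 28.2% fell. The 12 genes that rose on both scales were Acadm, Acads, Acad10, Hadha, Hadhb, Acaa2, Etfa, Etfb, Etfdh, Crat, Acox3 and Hsd17b4, and the 3 that fell on both were Acsl3, Acsl4 and Cpt1a. All 1983 genes of the whole table that rose on TPM also rose on median-scaled TPM (17.7%), and 28.2% fell on both. This overlap was all but fixed in advance. The factors were 1.05 to 1.09 in M0 and 0.941 to 0.945 in M2, so scaling raised M2 relative to M0 for every gene. A rise on both scales is therefore no separate support beyond the rise on TPM. Likewise, a fall on both adds nothing to the fall on median-scaled TPM. The M0 and M2 libraries did not overlap in TPM for 12 of the 30 genes higher in M2 and 8 lower in M2, against 19.6% and 49.8% of all genes. On median-scaled TPM the groups did not overlap for 20 higher and 4 lower, against 32.5% and 32.4%.

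**Figure D1:**
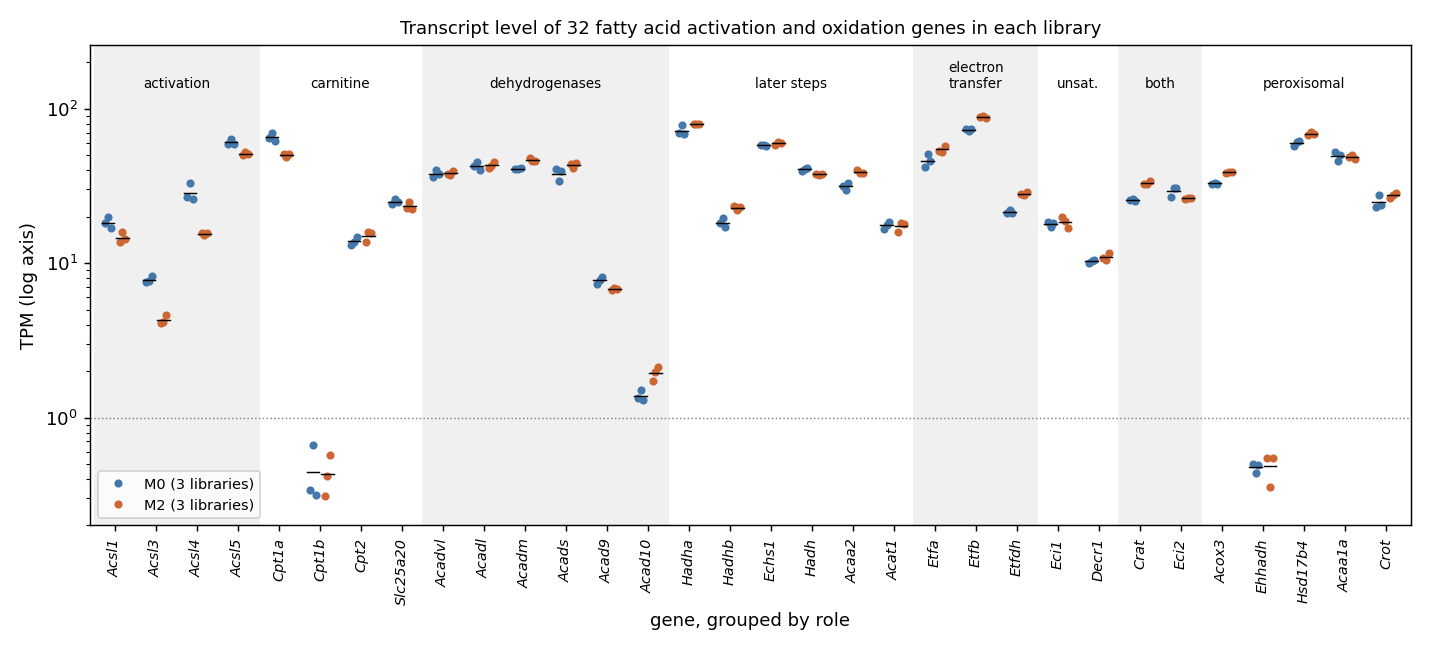
TPM on a log axis for each of the 32 genes, grouped by role from left to right, with a point for each of the 3 M0 and 3 M2 libraries, a line at each group mean and a dotted line at 1 TPM. Etfb and Hadha have the highest means in both groups, and Cpt1b and Ehhadh lie below 1 TPM.

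**Figure D2:**
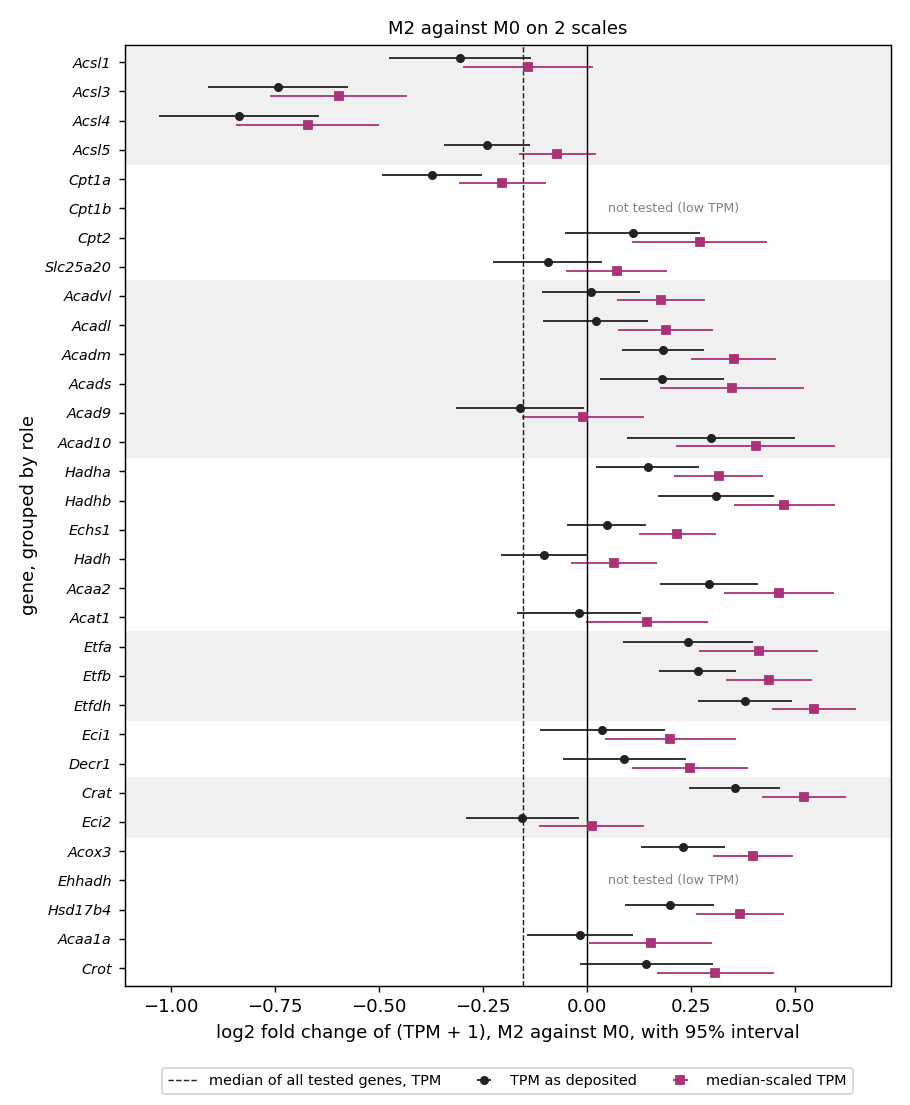
Fitted log2 fold change of TPM plus 1, M2 against M0, with its 95% confidence interval for the 30 tested genes (rows, by role), as circles on deposited TPM and squares on median-scaled TPM; the dashed line is the median of all tested genes on TPM. The ETF genes lie to the right of 0 on both scales, and Acsl3, Acsl4 and Cpt1a lie to the left of 0 on both.

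The synthetases that activate long-chain fatty acids were the step with the lowest values in M2 relative to M0. All 4 fell on TPM, where 45.3% of all genes tested fell, and Acsl3 and Acsl4 also fell on median-scaled TPM, where 28.2% did. The median log2 change of the 4 was −0.52 on TPM and −0.37 on median-scaled TPM. None of these 4 rose by limma-trend on either scale, at an adjusted or an unadjusted p under 0.05, or by limma-voom on recovered reads. Other acyl-CoA synthetases are described with the gene lists below. The 150 bases upstream of the starts of Acsl3, Acsl4 and Cpt1a, the 3 genes that fell on both scales, are shown in RefSeq's GRCm38.p6 build on the strand of the gene, with capitals for the letters GGGCGG (the SP box) and CCAAT (the NFY box) on either strand. They cover chr1:78657675-78657824 (plus strand) for Acsl3, chrX:142390536-142390685 (minus strand) for Acsl4 and chr19:3323151-3323300 (plus strand) for Cpt1a.
Acsl3: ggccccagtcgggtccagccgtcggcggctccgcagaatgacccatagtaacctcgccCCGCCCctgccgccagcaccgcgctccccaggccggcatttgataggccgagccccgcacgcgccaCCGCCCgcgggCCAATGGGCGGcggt
Acsl4: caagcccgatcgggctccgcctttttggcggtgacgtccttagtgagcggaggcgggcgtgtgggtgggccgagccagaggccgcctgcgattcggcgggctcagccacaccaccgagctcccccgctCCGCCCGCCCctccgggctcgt
Cpt1a: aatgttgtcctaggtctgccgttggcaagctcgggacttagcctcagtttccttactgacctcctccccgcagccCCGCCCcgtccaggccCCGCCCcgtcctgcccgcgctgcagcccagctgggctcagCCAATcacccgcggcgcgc
SP boxes number 3, 2 and 2 in these stretches, in that order, and an NFY box stands in those of Acsl3 and Cpt1a.

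Acsl4, a synthetase that prefers arachidonic acid, fell most among the 30 genes on the fitted scale. Its transcript NM_019477 lies on chromosome X of mm10 from position 142317993 to 142390535 and has 16 exons. Levels were 26.7, 33.2 and 25.9 TPM in the M0 libraries and 15.6, 15.1 and 15.8 TPM in the M2 libraries. M0 replicate 2 was the highest, and every M0 library was above every M2 library. The mean was 1.85-fold lower in M2, with a fitted log2 change of −0.84 (SE 0.0861, limma-trend adjusted p = 1.42e-05) on TPM and −0.67 (adjusted p = 5.51e-05) on median-scaled TPM.

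Acsl3, an endoplasmic reticulum and lipid droplet synthetase (NM_001033606, chromosome 1, 78657825 to 78707743, 15 exons), had 7.53, 7.68 and 8.24 TPM in M0 and 4.09, 4.13 and 4.60 TPM in M2. The groups were well separated and the M0 libraries lay close together. Its mean was 1.83-fold lower in M2, with a log2 change of −0.74 (SE 0.0754, adjusted p = 1.27e-05) on TPM and −0.60 (adjusted p = 9.22e-05) on median-scaled TPM. The gene shares 66 exonic bases on the same strand with Utp14b, which went from 3.58 to 1.16 TPM, and reads in that stretch cannot be assigned to either gene.

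Acsl5, a synthetase also found on the mitochondrial outer membrane, was the most abundant of the 4, with 59.5, 63.2 and 59.3 TPM in M0 and 50.2, 52.3 and 51.0 TPM in M2. Its log2 change was −0.24 on TPM (SE 0.0463, adjusted p = 0.00119) but −0.07 on median-scaled TPM (adjusted p = 0.170). Acsl1, the synthetase known for feeding oxidation in muscle and fat, had 18.1, 19.8 and 16.8 TPM in M0 and 13.6, 15.8 and 14.2 TPM in M2. It too passed on TPM only, with a log2 change of −0.30 (SE 0.0767, adjusted p = 0.00580) and −0.14 on median-scaled TPM (adjusted p = 0.110). For Acsl5 and Acsl1 the call therefore depended on the scale. The ratio of Acsl4 to Acsl5, which no scaling of libraries changes, was 0.449, 0.525 and 0.436 in M0 and 0.311, 0.289 and 0.309 in M2, without overlap. An exact test of 3 libraries against 3 cannot give a two-sided p below 0.1, so no p is given for ratios. Groups without overlap were common, at 19.6% of all genes higher and 49.8% lower in M2 on TPM. Such a share was not computed for ratios. Acsl5 has 404 exonic bases opposite Zdhhc6 (25.9 TPM in M0, 20.8 TPM in M2), and whether the counting used strand is not given in the sources used here.

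In the carnitine shuttle the entry step fell. Cpt1a, the liver-type carnitine palmitoyltransferase 1 of the outer membrane and the target of malonyl-CoA inhibition, had 64.5, 69.8 and 61.5 TPM in M0 and 50.8, 49.0 and 50.7 TPM in M2. All M2 libraries were below all M0 libraries, and the M2 libraries differed little among themselves. Cpt1a (NM_013495, chromosome 19, 3323301 to 3385733, 19 exons) was 1.30-fold lower in mean TPM, with a log2 change of −0.37 (SE 0.0537, adjusted p = 0.000167) and −0.20 on median-scaled TPM (adjusted p = 0.00470). Cpt1b, the muscle-type isoform, was under 1 TPM and not tested, with 0.341, 0.667 and 0.317 TPM in M0 and 0.309, 0.418 and 0.573 TPM in M2, from 57 and 58 reads per group. Its groups overlapped fully, and 2744 of its exonic bases are shared with Gm44502, so that even these few reads are uncertain.

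Cpt2, which reforms acyl-CoA on the matrix side, had 13.1, 13.7 and 14.8 TPM in M0 and 13.8, 15.8 and 15.6 TPM in M2. The groups overlapped on TPM (log2 change 0.11, adjusted p = 0.209), and Cpt2 rose on median-scaled TPM only (0.27, adjusted p = 0.00973). Slc25a20, the carnitine-acylcarnitine carrier of the inner membrane, passed on neither scale, with means of 25.0 ± 0.862 and 23.3 ± 1.33 TPM (SD, n = 3 libraries) in M0 and M2. Its log2 change was −0.09 on TPM and 0.07 on median-scaled TPM. Cpt1a and Cpt2 passed in opposite directions on median-scaled TPM, and the ratio of Cpt1a to Cpt2 was 4.91, 5.08 and 4.16 in M0 against 3.69, 3.09 and 3.24 in M2.

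The acyl-CoA dehydrogenases open each turn of the cycle, each for a range of chain lengths. Acadm and Acads, the medium-chain and short-chain enzymes, rose on both scales together with Acad10, while Acadvl and Acadl, the very-long-chain and long-chain enzymes, rose on median-scaled TPM only. Whether the enzymes differed from each other in their change was not tested. Of the 6 dehydrogenases 3 rose on TPM, against 17.7% of all genes tested, and 5 on median-scaled TPM, against 28.8%. None fell by limma-trend at the adjusted threshold or by limma-voom, although 1 (Acad9) had a lower value at an unadjusted p under 0.05 on TPM.

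Acadm (NM_007382, chromosome 3, 153922353 to 153944643) had 40.7, 40.4 and 41.4 TPM in M0 and 47.6, 46.1 and 45.9 TPM in M2. Both groups were tight and did not overlap, with a log2 change of 0.18 (SE 0.0443, adjusted p = 0.00445) on TPM and 0.35 (adjusted p = 0.000130) on median-scaled TPM. Acads had 40.5, 34.2 and 39.3 TPM in M0 and 43.9, 41.0 and 44.5 TPM in M2, a narrow separation in which M0 replicate 2 was the lowest library. Its log2 change was 0.18 (SE 0.0672, adjusted p = 0.0372) on TPM and 0.35 (adjusted p = 0.00355) on median-scaled TPM. The TPM call was lost without M0 replicate 2 (0.11, adjusted p = 0.0549), without M2 replicate 1 (adjusted p = 0.108) or without M2 replicate 3 (adjusted p = 0.123).

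Acadvl had 36.1, 39.9 and 38.0 TPM in M0 and 37.8, 37.5 and 39.5 TPM in M2, and Acadl had 42.5, 44.9 and 39.8 TPM in M0 and 41.5, 42.7 and 45.01 TPM in M2. Both overlapped between groups on TPM. The log2 change on TPM was 0.01 for Acadvl (95% confidence interval −0.11 to 0.13, adjusted p = 0.867) and 0.02 for Acadl (−0.11 to 0.15, adjusted p = 0.765). On median-scaled TPM the changes were 0.18 (adjusted p = 0.00926) and 0.19 (adjusted p = 0.0102). Acadvl has 976 exonic bases opposite Dvl2, which went from 13.8 to 17.0 TPM.

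Acad10, a dehydrogenase of less settled substrate, was the lowest of the tested genes, with 1.34, 1.51 and 1.30 TPM in M0 and 1.73, 1.96 and 2.12 TPM in M2, from 223 and 322 reads. It rose by 0.30 in log2 (SE 0.0906, adjusted p = 0.0150) on TPM and by 0.41 (adjusted p = 0.00274) on median-scaled TPM. The TPM call was lost without M2 replicate 2 (adjusted p = 0.0529) or without M2 replicate 3 (adjusted p = 0.0751). Acad9, also known as an assembly factor of respiratory complex I, had means of 7.73 ± 0.427 and 6.80 ± 0.141 TPM and passed on neither scale (log2 change −0.16 and −0.01, adjusted p = 0.0651 and 0.914). It shares 559 exonic bases on the same strand with Gm43079.

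Of the 6 genes for hydration, the second dehydrogenation and thiolysis, 3 rose on both scales (Hadha, Hadhb and Acaa2), Echs1 rose on median-scaled TPM only, and Hadh and Acat1 passed on neither. Among all genes tested 17.7% rose on TPM and 28.8% on median-scaled TPM. Hadha and Hadhb encode the alpha and beta subunits of the mitochondrial trifunctional protein, which handles long-chain intermediates. In RefSeq their starts face away from each other on chromosome 5, and the 272 bases between the starts, chr5:30154981-30155252 (plus strand, GRCm38.p6), are shown because they lie directly upstream of both genes. Capitals mark the letters GGGCGG.
Hadha-Hadhb: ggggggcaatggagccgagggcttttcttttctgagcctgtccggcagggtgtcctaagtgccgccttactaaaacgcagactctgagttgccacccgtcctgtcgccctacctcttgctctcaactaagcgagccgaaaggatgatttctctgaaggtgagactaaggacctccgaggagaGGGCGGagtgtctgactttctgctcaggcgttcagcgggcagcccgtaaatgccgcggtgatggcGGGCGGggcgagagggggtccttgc
The stretch holds 2 SP boxes and no NFY box.

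Hadha was the second most abundant of the 32 genes, with 69.5, 78.2 and 68.1 TPM in M0 and 79.6, 79.3 and 79.9 TPM in M2. M0 replicate 2 lay near the M2 libraries, so the groups were separated by little. Its log2 change was 0.15 (SE 0.0555, adjusted p = 0.0408) on TPM and 0.32 (adjusted p = 0.000362) on median-scaled TPM. On TPM the call was lost without any single library other than M0 replicate 2 (adjusted p from 0.0950 to 0.128). Hadhb had 18.1, 19.7 and 17.2 TPM in M0 and 23.3, 22.2 and 23.2 TPM in M2, with a clear gap between groups. Its log2 change was 0.31 (SE 0.0625, adjusted p = 0.00154) on TPM and 0.48 (adjusted p = 5.41e-05) on median-scaled TPM. The ratio of Hadha to Hadhb was 3.85, 3.97 and 3.97 in M0 and 3.42, 3.57 and 3.44 in M2, lower in every M2 library.

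Acaa2, the mitochondrial 3-ketoacyl-CoA thiolase, had 31.8, 29.9 and 33.0 TPM in M0 and 40.2, 38.3 and 38.3 TPM in M2. All M2 libraries were above all M0 libraries, with a log2 change of 0.29 (SE 0.0531, adjusted p = 0.000779) on TPM and 0.46 (adjusted p = 0.000116) on median-scaled TPM. Echs1, the short-chain enoyl-CoA hydratase, had means of 57.9 ± 0.630 and 59.9 ± 1.30 TPM and passed on median-scaled TPM only (log2 change 0.05 and 0.22, adjusted p = 0.345 and 0.00148). Hadh, the short-chain hydroxyacyl-CoA dehydrogenase, had means of 40.4 ± 1.15 and 37.5 ± 0.455 TPM, with log2 changes of −0.10 and 0.06. Acat1, the acetoacetyl-CoA thiolase of ketone body and isoleucine metabolism, had means of 17.6 ± 0.839 and 17.3 ± 1.18 TPM, with log2 changes of −0.02 and 0.14. For Hadh and Acat1 the sign differed between the scales, and neither passed on either. Hadh passed on TPM when M0 replicate 2 was left out (−0.10, adjusted p = 0.0422).

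The genes of the electron transfer step moved together: Etfa and Etfb, which encode the alpha and beta subunits of ETF, and Etfdh, which encodes the ETF-ubiquinone oxidoreductase that passes the electrons to ubiquinone, all rose on both scales. Among all genes tested 17.7% rose on both. The median log2 change of the ETF genes was 0.27 on TPM and 0.44 on median-scaled TPM, above the medians of the 30 genes (0.07 and 0.23). As members that moved together, they are shown by the 150 bases upstream of their RefSeq starts (GRCm38.p6, strand of the gene), with capitals for the NFY box (CCAAT) and for the NRF1 site, the letters GCGCA and GCGC with 1 base between them, on either strand. The windows are chr9:55512244-55512393 (minus strand) for Etfa, chr7:43443922-43444071 (plus strand) for Etfb and chr3:79628768-79628917 (minus strand) for Etfdh.
Etfa: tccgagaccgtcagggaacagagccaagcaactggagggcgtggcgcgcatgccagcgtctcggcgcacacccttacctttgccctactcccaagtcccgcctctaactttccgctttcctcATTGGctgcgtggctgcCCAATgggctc
Etfb: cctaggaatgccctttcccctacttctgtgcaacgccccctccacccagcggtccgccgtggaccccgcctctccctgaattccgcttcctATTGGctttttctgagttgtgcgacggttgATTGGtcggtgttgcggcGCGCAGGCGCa
Etfdh: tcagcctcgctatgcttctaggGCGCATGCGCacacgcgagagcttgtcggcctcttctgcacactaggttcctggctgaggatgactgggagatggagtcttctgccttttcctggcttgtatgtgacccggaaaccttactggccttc
Etfa and Etfb hold 2 NFY boxes each, and Etfb and Etfdh hold 1 NRF1 match each.

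Etfdh (NM_025794, chromosome 3, 79603788 to 79628767, 13 exons) had the highest fitted log2 change of the 30 genes on both scales, although the mean of the low gene Acad10 rose more, 1.40-fold. Its levels were 21.1, 22.0 and 21.1 TPM in M0 and 28.1, 27.7 and 28.7 TPM in M2. The libraries within each group lay close together, and the mean was 1.32-fold higher in M2, with a log2 change of 0.38 (SE 0.0505, adjusted p = 9.32e-05) on TPM and 0.55 (adjusted p = 5.71e-06) on median-scaled TPM. Etfb, the most abundant of the 32 genes in both groups, had 74.1, 71.5 and 74.1 TPM in M0 and 88.4, 89.8 and 86.8 TPM in M2. Etfb, whose transcript has 896 bases, shares 617 exonic bases of its gene on the same strand with Gm45233, and reads there cannot be assigned to either gene. Its groups did not overlap, with a log2 change of 0.27 (SE 0.0415, adjusted p = 0.000281) on TPM and 0.44 (adjusted p = 3.12e-05) on median-scaled TPM. Etfa had 41.7, 50.6 and 45.7 TPM in M0 and 53.2, 52.8 and 57.7 TPM in M2, with more spread in M0 and a small gap. Its log2 change was 0.24 (SE 0.0700, adjusted p = 0.0115) on TPM and 0.41 (adjusted p = 0.000427) on median-scaled TPM, and the TPM call was lost without M2 replicate 3 (0.20, adjusted p = 0.0546). The ratio of Etfb to Etfa ranged from 1.41 to 1.78 in M0 and from 1.51 to 1.70 in M2, so the balance of the subunits overlapped between groups.

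Enzymes for unsaturated fatty acids changed little on TPM. Eci1, the mitochondrial enoyl-CoA isomerase, had means of 17.9 ± 0.609 and 18.4 ± 1.44 TPM, and Decr1, the mitochondrial 2,4-dienoyl-CoA reductase, 10.3 ± 0.261 and 11.004 ± 0.643 TPM. Both passed on median-scaled TPM only, with log2 changes of 0.20 (adjusted p = 0.0328) and 0.25 (adjusted p = 0.00732), and had log2 changes of 0.04 and 0.09 on TPM.

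The 2 enzymes with products in both organelles differed from each other. Crat, carnitine acetyltransferase, which moves short acyl groups between coenzyme A and carnitine, had 25.7, 25.9 and 25.2 TPM in M0 and 32.7, 32.4 and 33.9 TPM in M2. Its groups were far apart relative to their spread, and it rose 1.29-fold, with a log2 change of 0.36 (SE 0.0487, adjusted p = 0.000115) on TPM and 0.52 (adjusted p = 8.01e-06) on median-scaled TPM, second to Etfdh in fitted change on the median-scaled values. The ratio of Cpt1a to Crat, the long-chain and short-chain transferases, was 2.51, 2.69 and 2.44 in M0 and 1.55, 1.51 and 1.49 in M2. Eci2, the other enoyl-CoA isomerase, had 27.0, 30.8 and 30.6 TPM in M0 and 26.2, 26.3 and 26.5 TPM in M2, all below M0. It passed as lower on TPM (log2 change −0.15, SE 0.0607, adjusted p = 0.0466) but stood at 0.01 on median-scaled TPM (adjusted p = 0.869). Its TPM call was also lost by limma-voom on recovered reads (−0.11, adjusted p = 0.187) and without any 1 of M0 replicates 2 and 3 and M2 replicates 1, 2 and 3 (adjusted p from 0.0803 to 0.130).

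The peroxisomal enzymes split between those that rose on both scales and those that did not pass on TPM. Of the 4 tested, 2 rose on TPM and 3 on median-scaled TPM, and none fell by limma-trend on either scale, at an adjusted or an unadjusted p under 0.05, or by limma-voom, by which 3 rose. The shares of all genes tested that rose were 17.7% and 28.8%, on TPM and on median-scaled TPM. Acox3, the acyl-CoA oxidase known for branched chains, had 32.7, 33.2 and 32.6 TPM in M0 and 38.1, 39.0 and 39.2 TPM in M2. The M0 libraries were nearly equal and all M2 libraries were higher, with a log2 change of 0.23 (SE 0.0454, adjusted p = 0.00129) on TPM and 0.40 (adjusted p = 3.44e-05) on median-scaled TPM. Acox3 has 260 exonic bases opposite 4931431C16Rik (3.18 and 3.97 TPM). Hsd17b4, the bifunctional enzyme that hydrates and dehydrogenates branched and very long chains, was the most abundant peroxisomal member, with 57.0, 61.0 and 61.9 TPM in M0 and 67.9, 70.9 and 68.2 TPM in M2. It rose by 0.20 in log2 (SE 0.0480, adjusted p = 0.00447) on TPM and by 0.37 (adjusted p = 0.000121) on median-scaled TPM.

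Crot, carnitine octanoyltransferase, which readies shortened chains for export from the peroxisome, had 23.1, 27.8 and 24.0 TPM in M0 and 26.4, 27.6 and 28.6 TPM in M2. M0 replicate 2 was as high as the M2 libraries. Crot had a log2 change of 0.14 on TPM (adjusted p = 0.107) and 0.31 on median-scaled TPM (adjusted p = 0.00226). Without M0 replicate 2 it passed on TPM too (0.22, adjusted p = 0.00330), as it did by limma-voom (0.20, adjusted p = 0.0170). Acaa1a, the peroxisomal thiolase, had 52.1, 45.7 and 50.3 TPM in M0 and 48.7, 50.5 and 47.2 TPM in M2. Its groups overlapped on TPM, with a log2 change of −0.02 (95% confidence interval −0.14 to 0.11, adjusted p = 0.829) and 0.15 on median-scaled TPM (adjusted p = 0.0705). Its paralog Acaa1b had 0.0670 TPM on average in M0 and 0.0523 in M2. Ehhadh, the other bifunctional enzyme and a known PPAR-alpha target in liver, was under 1 TPM and not tested, with 0.501, 0.440 and 0.490 TPM in M0 and 0.546, 0.355 and 0.549 TPM in M2, from 64 and 67 reads.

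Set side by side, the summed levels of the mitochondrial and of the peroxisomal enzymes were both higher in M2 in deposited TPM. Of the 20 tested mitochondrial genes 9 rose, 1 (Cpt1a) fell and 10 did not pass on TPM, with a median log2 change of 0.10, and 15 rose and 1 fell on median-scaled TPM, with a median of 0.26. Over all genes tested 17.7% rose and 45.3% fell on TPM, and 28.8% rose and 28.2% fell on median-scaled TPM. The medians of the 4 peroxisomal genes were 0.17 and 0.34. The count of mitochondrial rises on TPM was 5 without M2 replicate 3. Summed over the 21 mitochondrial genes, levels were 669, 695 and 675 TPM in M0 and 722, 722 and 732 TPM in M2, a mean 6.76% higher. The 5 peroxisomal genes summed to 165, 168 and 169 TPM in M0 and 182, 188 and 184 TPM in M2, a mean 10.1% higher. Neither pair of sums overlapped. These sums are in deposited TPM only, and their percent changes depend on the scale. Median scaling raises M2 relative to M0, so both rises would be larger on it. The ratio of peroxisomal to mitochondrial TPM, which does not depend on scaling, was 0.247, 0.242 and 0.251 in M0 and 0.251, 0.261 and 0.251 in M2. These ratios overlapped, so a difference between the organelles was not shown. Counted with Crat and Eci2 as peroxisomal the mean ratio was 0.328 in M0 and 0.336 in M2, again with overlap, and with them as mitochondrial 0.228 and 0.235, where the groups were just separated.

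Synthetases and mitochondrial enzymes moved apart. In deposited TPM the 4 synthetases summed to 112, 124 and 110 in M0 and 83.5, 87.4 and 85.6 in M2. Their mean fell by 25.8% on this scale, and the fall would be smaller on median-scaled TPM. Relative to the mitochondrial sum the synthetases stood at 0.167, 0.178 and 0.163 in M0 and 0.116, 0.121 and 0.117 in M2. All M2 ratios were below all M0 ratios, and library scaling does not affect them. Groups without overlap were common among single genes too, at 19.6% higher and 49.8% lower in M2 on TPM. Apart from the peroxisomal to mitochondrial ratio, the ratios given here were not part of the plan.

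**Figure D3:**
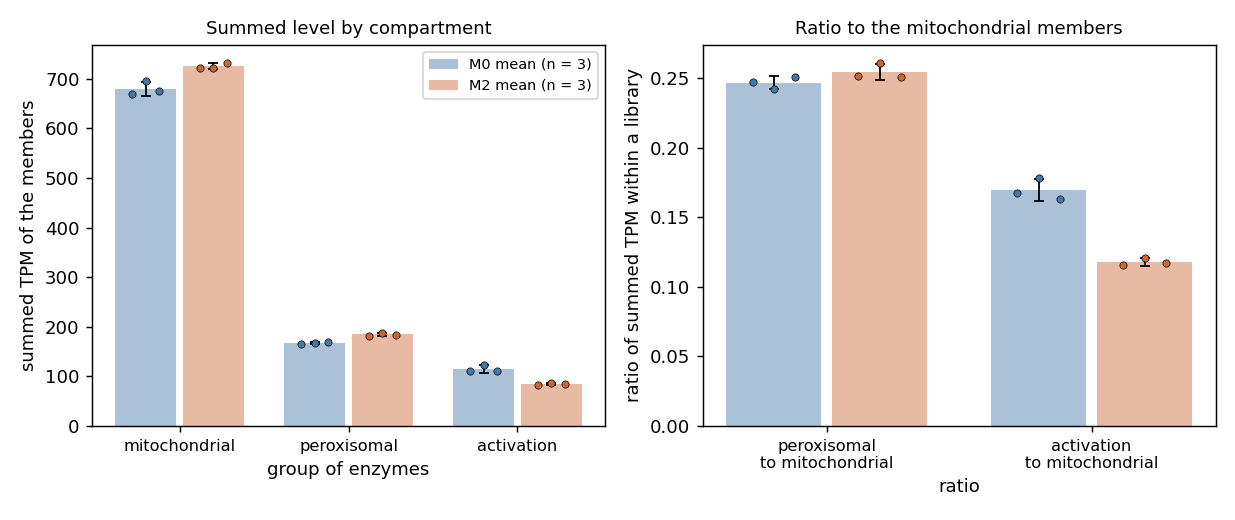
Summed deposited TPM of the mitochondrial, peroxisomal and activation genes (left) and the ratios of the peroxisomal and activation sums to the mitochondrial sum (right), with a bar at the group mean, an error bar of 1 SD (n = 3) and a point for each library. The synthetase sum and ratio are lower in the 3 M2 libraries, and the peroxisomal to mitochondrial ratio overlaps between groups.

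The order of the genes by level, in TPM and so per transcript length, shifted at a few places. In M0 the highest means were Etfb (73.2 ± 1.48 TPM), Hadha (72.0 ± 5.50), Cpt1a (65.3 ± 4.20), Acsl5 (60.7 ± 2.21), Hsd17b4 (60.0 ± 2.62) and Echs1 (57.9 ± 0.630). Among these neighbours Etfb and Hadha, Acsl5 and Hsd17b4, and Hsd17b4 and Echs1 differed by less than the larger of their SDs. In M2 Etfb (88.3 ± 1.50) and Hadha (79.6 ± 0.275) were followed by Hsd17b4 (69.0 ± 1.65), Echs1 (59.9 ± 1.30) and Etfa (54.6 ± 2.70). Cpt1a went from rank 3 to rank 7 and Acsl4 from rank 17 to rank 24. In M2, Acsl5 (51.2 ± 1.05) and Cpt1a (50.1 ± 1.00) were next to each other and differed by about 1 SD.

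Other genes of the pathway were read from 7 lists with 129 genes, of which 112 were tested. On TPM 32 rose, 30 fell and 50 did not pass, with a median log2 change of −0.03, and on median-scaled TPM 51 rose and 13 fell, with a median of 0.13. Beside these and each list below stand the shares of all genes tested. On TPM 17.7% rose and 45.3% fell, and on median-scaled TPM 28.8% rose and 28.2% fell. Single genes of the lists are given with the change on TPM. Their call was the same on median-scaled TPM unless stated, though the size of the change differed. Slc27a3, Ppargc1b and Elovl6 were under 1 TPM in every library of their lower group, so they entered the test only through the higher one, and their calls support nothing. The same holds for Slc25a42, a mitochondrial list gene that reached the minimum through M2. It had 0.930, 1.11 and 0.885 TPM in M0 and 1.32, 1.48 and 1.20 TPM in M2. The counts over the 112 genes and over their own lists still include all of these genes on both scales. Slc25a42, Slc27a3 and Ppargc1b are there as rises and Elovl6 as a fall. Of 22 further mitochondrial oxidation genes 9 rose and 3 fell on TPM (median 0.12), and 13 rose and 2 fell on median-scaled TPM (median 0.26). Auh, a hydratase of leucine breakdown, rose from 13.6 ± 0.279 to 42.6 ± 2.995 TPM (log2 change 1.57, adjusted p = 1.02e-08), Oxct1, which activates ketone bodies, from 50.5 ± 3.70 to 103 ± 3.57 TPM (1.02), and Acss1, the mitochondrial acetyl-CoA synthetase, from 6.23 ± 0.544 to 12.7 ± 0.700 TPM (0.92). Hibch, of valine breakdown, fell by 0.61 in log2. On TPM these exceeded every change among the 30 oxidation genes in size except that Hibch was below Acsl3 and Acsl4.

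Of 16 further genes listed as peroxisomal oxidation genes, Abcd4 and Ech1 among them, 5 rose and 1 fell on TPM (median 0.07). On median-scaled TPM 8 rose (median 0.21). Where the product of each gene acts was not tested. Abcd2, a peroxisomal importer of very-long-chain acyl-CoA, rose most, from 3.42 ± 0.404 to 17.6 ± 1.47 TPM (2.08). Amacr (0.50), Ech1 (0.28) and Nudt19 (0.24) also rose. Cat, the catalase that removes hydrogen peroxide, had means of 246 ± 15.3 and 217 ± 5.50 TPM, and passed as lower on TPM only (log2 change −0.17, adjusted p = 0.0110, against −0.0014 and adjusted p = 0.981 on median-scaled TPM).

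Of 16 peroxisome biogenesis genes 4 rose and 3 fell on TPM (median −0.07), and 5 rose on median-scaled TPM (median 0.08). Pex26 rose by 1.35 and Pex11g by 0.73 in log2, and Pex3 (−0.29) and Pex14 (−0.24) passed as lower on TPM only. Of 13 genes for uptake and other synthetases 4 rose and 5 fell on TPM (median −0.08), and 6 rose and 3 fell on median-scaled TPM (median 0.09). The transport protein Slc27a1 fell from 159 ± 8.77 to 91.9 ± 3.06 TPM (−0.78), the carnitine transporter Slc22a5 rose from 6.72 ± 0.704 to 13.3 ± 0.969 TPM (0.89), and Acsf2 rose by 0.69 in log2 from 3.05 ± 0.226 TPM. Slc27a3 had 0.577, 0.379 and 0.525 TPM in M0 and 2.66, 2.06 and 2.61 TPM in M2.

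Of 10 genes of malonyl-CoA control and fatty acid synthesis 2 rose and 4 fell on TPM (median −0.12), and 3 rose and 3 fell on median-scaled TPM (median 0.03). The AMP-activated kinase subunit Prkab1 (−0.50) and Fasn (−0.36) fell and Scd2 (0.41) rose, all on both scales. Elovl6 had 2.10, 2.68 and 2.36 TPM in M0 and 0.793, 0.841 and 0.924 TPM in M2. Of 23 tricarboxylic acid cycle genes 5 rose and 9 fell on TPM (median −0.08), and 11 rose and 2 fell on median-scaled TPM (median 0.09). The pyruvate dehydrogenase kinases went in opposite directions, with Pdk2 higher (0.66) and Pdk1 lower (−0.62) in M2. Idh3a (−0.37) fell on both scales and Suclg2 (−0.30) on TPM only.

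Of 12 regulators of oxidation genes 3 rose and 5 fell on TPM (median −0.09), and 5 rose and 3 fell on median-scaled TPM (median 0.08). Pparg, the lipid-activated nuclear receptor, rose from 16.7 ± 1.54 to 35.2 ± 0.602 TPM (log2 change 1.03, adjusted p = 4.35e-07). Ppargc1b, a coactivator of oxidative genes, had 0.760, 0.775 and 0.794 TPM in M0 and 3.26, 3.21 and 3.37 TPM in M2, a fitted log2 change of 1.27. Its relative Pprc1 (−0.74) and the corepressor Nrip1 (−0.56) fell. Esrra, an orphan receptor of mitochondrial genes, had a log2 change of 0.10 on TPM (adjusted p = 0.151) and 0.27 on median-scaled TPM (adjusted p = 0.00592). Ppara and Ppargc1a, the regulators best known from liver and muscle, were at means of at most 0.0170 TPM in either group and were not tested.

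**Figure D4:**
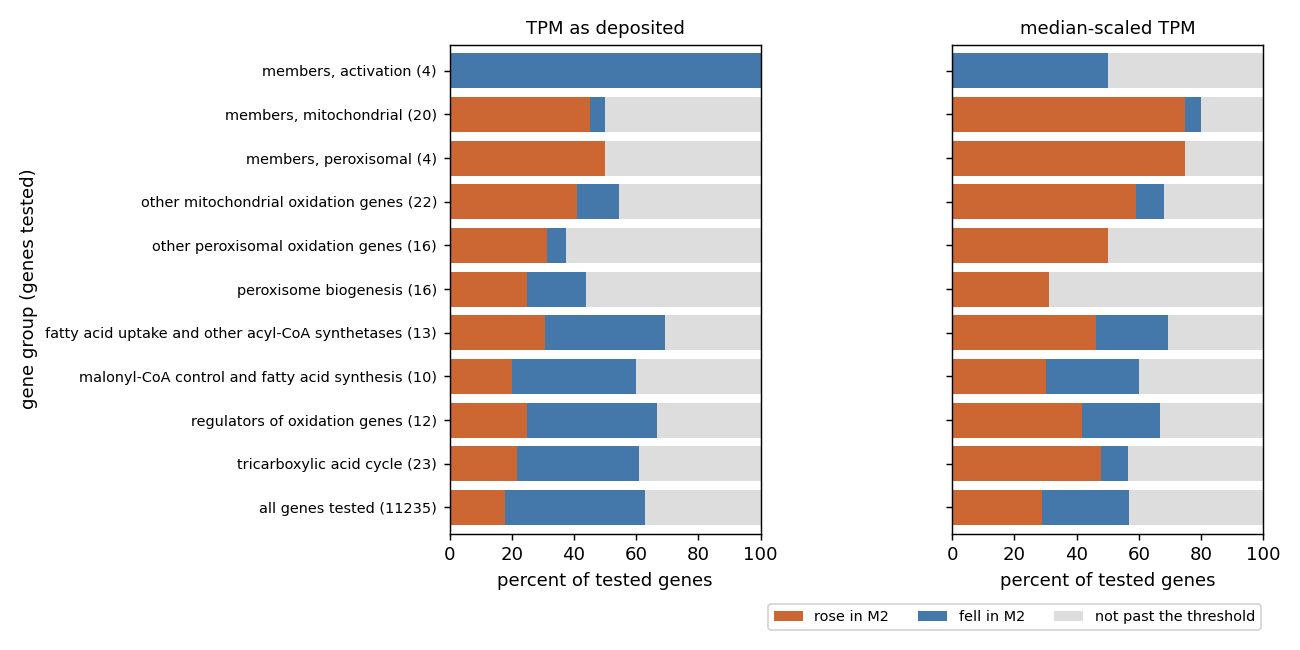
Percent of tested genes that rose, fell or did not pass the threshold in M2 against M0, for each group of genes (number tested in brackets) and for all 11235 genes tested, on deposited TPM (left) and on median-scaled TPM (right). All 4 synthetases fell on TPM and 2 of 4 on median-scaled TPM, and in each other group shown the percent that rose was larger on median-scaled TPM.

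Promoter letters were searched in 25 of the 32 genes that matched RefSeq's promoter table (GRCm38.p6, 250 bases before to 50 after the start), on both strands. Cpt1b, Acad9, Acaa2, Acat1, Decr1, Crat and Hsd17b4 had no match and were not searched. Acaa2, Crat and Hsd17b4 are among the genes that rose on both scales. The 25 include Ehhadh, which was not tested. The SP box GGGCGG was in 20 of 25 (80%), against 66.3% of 8797 promoters of tested genes and 36.1% of all 27025 promoters. The NFY box CCAAT was in 11 (44%), against 38.6% and 37.7%. The NRF1 letters, GCGCA and GCGC with 1 base between them, were in 3 (12%; Acad10, Etfb and Etfdh), against 11.8% and 4.81%, and the GABPA letters CCGGAAG in 3 (12%; Cpt2, Slc25a20 and Crot), against 20.7% and 9.24%. Letters of a PPAR response element, a repeat of AGGNCA with 1 base between the copies (0.273% and 0.403%), of an ERR site, TCAAGGTCA (0.261% and 0.381%), and of a STAT6 site, TTC and GAA with 4 bases between them (5.55% and 7.05%), were in no promoter of the 25. The ERR letters hold a half-site that the PPAR letters also allow, and no other motif contains another. A match is a description of letters in this window only.

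The authors' deposited table of the comparison, whose 18516 genes with a fold change had 17.2% called as higher and 16.6% as lower at an adjusted p under 0.05, gave 18 of the 32 genes as higher, 3 as lower and 11 as not past that threshold. Those 18516 genes include many that did not reach the TPM minimum of the fit above. Of the 11235 genes that did, 28.8% rose and 28.2% fell on median-scaled TPM. The 3 lower genes in the authors' deposited table were Acsl4 (log2 fold change −0.70, adjusted p = 1.01e-17), Acsl3 (−0.69, adjusted p = 5.37e-09) and Cpt1a (−0.21, adjusted p = 0.000527). In the authors' deposited table Acad10 had the highest log2 fold change of the 32 genes, 0.63 (adjusted p = 0.00359), Etfdh had 0.56, Crat 0.54, Hadhb 0.49 and Acaa2 0.47, and Crot was among the higher genes at 0.31 (adjusted p = 0.000166). For 6 of the 32 genes (Acsl3, Acsl4, Hadhb, Eci2, Acox3 and Acaa1a) the authors' deposited table keeps a different transcript from the TPM table.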

How the data were processed

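Polyadenylated RNA of 6 libraries was sequenced. Per the submitters' processing notes the tools were bcl2fastq, STAR, HOMER 4.11.1 and DESeq2, and the build mm10. Per the file headers, HOMER summed exon reads over 1 transcript per gene, and the authors deposited these as TPM per library. The authors' deposited comparison holds log2 values per library (the transformation is not named), log2 fold changes and p-values with their adjusted p-values. Its sign is M2 minus M0. Whether counting used strand is not given in the sources used here. The deposited tables were joined by symbol, with 3 rows realigned.

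TPM multiplied by length gave whole reads within 0.1 read for 99.8% to 99.9% of nonzero values, a total of 89.8% to 90.9% of the header totals. Counting error is the least error these reads allow. Deposited TPM summed to 542749 to 553186. Groups were compared by two-sided limma-trend with group as the only term (R 4.3.3, limma 3.58.1) on log2 of TPM plus 1 for the 11235 genes that reached 1 TPM in 3 or more libraries, Benjamini-Hochberg adjusted over all of them, with a threshold of 0.05. Median scaling divided TPM by factors of 0.941 to 1.09. On recovered reads limma-voom called 2331 genes as higher and 4618 as lower in M2. The fit was also run on simulated data with the same scatter in every library. The real M0 replicate 2 stood apart, so that run does not vouch for the calls here. Other alternatives were a minimum of 50 reads in place of the TPM minimum, no filter, a pseudocount of 0.1 or 5, the deposited log2 values, a replicate block, scaling with that block, each library left out and the compartment of Crat and Eci2. Scaling without M0 replicate 2 was added after seeing the data. Planned count tests did not apply.

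The members and the gene lists were chosen with earlier results of these data known. Per-library values were to be given for members past the threshold with an absolute log2 change of at least 0.5, for Cpt1a and for the tested peroxisomal members. From each pathway list up to 4 members past the threshold with the largest change were named, and Cat, Ppara, Pparg, Ppargc1a, Ppargc1b and Esrra whatever their result. A further gene of this rule is not reported here. Other per-library values were added after they had been seen. Marker lists of 9 cell types (67 genes) were read as summed TPM. Those of neutrophils summed to 36.9 to 44.5 TPM in M0 and 34.0 to 42.3 in M2, T and NK cells to at most 0.239 in either, B cells to 1.86 to 1.98 and 1.26 to 1.69, mast cells, basophils and eosinophils to 1.57 to 1.68 and 2.51 to 2.89, dendritic cells to 0.365 to 0.595 and 1.22 to 1.54, and the erythroid and megakaryocyte list, through Pf4, to 703 to 859 and 407 to 425. Exon numbers and overlaps are from GENCODE M21. Tables used pandas 2.3.3 and numpy 2.4.6 under Python 3.11.15, and figures matplotlib 3.10.9.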

Additional observations from a re-analysis of the deposited data

How the results depend on the processing

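Scaling had the largest effect on the counts. Of the 30 tested oxidation genes 12 rose and 6 fell on TPM, 19 and 3 with median-ratio scaling, alone or with the replicate block, 18 and 3 with the authors' log2-scale values or with scaling without M0 replicate 2, 13 and 5 by limma-voom, and 10 and 5 without a filter. The counts were also 12 and 6 with pseudocounts of 0.1 and 5 and a minimum of 50 reads. Leaving out each library in turn gave 8 to 12 rises and 5 to 6 falls, with 8 without M2 replicate 3. Among mitochondrial genes the 9 rises became 15 with scaling, alone or with the block, 14 with the authors' log2-scale values or with scaling without M0 replicate 2, and 5 to 8 with a library left out. The 1 fall became 1 to 2. The pathway lists' 32 rises and 30 falls became 51 and 13 with scaling, 48 and 13 with scaling and the block, 52 and 13 with the authors' values and 54 and 14 with scaling without M0 replicate 2. Peroxisomal rises numbered 2 or 3. The peroxisomal to mitochondrial ratio was 0.2468 in M0 and 0.2545 in M2, 0.3278 and 0.3363 with Crat and Eci2 as peroxisomal, and 0.2283 and 0.2352 with both as mitochondrial. The cause of the shifts with scaling was not tested.

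Some of the genes named in the text changed sign. With scaling, the authors' values and scaling without M0 replicate 2, in that order, the log2 change was 0.0716, 0.0650 and 0.0781 for Slc25a20, 0.0646, 0.0593 and 0.0466 for Hadh, 0.1444, 0.1381 and 0.1278 for Acat1, 0.0121, 0.0225 and 0.0266 for Eci2, and 0.1537, 0.1390 and 0.0817 for Acaa1a. Scaling with the block gave the scaled values. Cat stood at 0.0303 with scaling without M0 replicate 2, and Acat1 at 0.0332 and Acaa1a at 0.0353 by limma-voom. With a library left out, Acadvl ranged from −0.0244 to 0.0463, Acadl from −0.0225 to 0.0624, Acat1 from −0.0522 to 0.0354, Eci1 from −0.0108 to 0.0956 and Acaa1a from −0.0688 to 0.0238.

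The labels do not say whether M0 and M2 libraries of the same number share a mouse or culture. Same-numbered libraries had correlations of their deviations of 0.00495, −0.00487 and −0.0428, and differently numbered libraries of −0.0448 to 0.0510. Such values near 0 cannot settle whether the libraries are paired. With the replicate block 12 of the 30 genes rose and 5 fell, and Eci2 no longer passed (adjusted p = 0.0542). Depth limits the lowest genes: Acad10 rests on 223 and 322 reads per group, and Cpt1b and Ehhadh on 57 to 67.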
